A study of Mus musculus with 4 samples.

Results

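Ccer2-rich Merkel-like cells were the cells in which at least 1% of the UMIs (counted RNA molecules) came from Ccer2, a level of 10000 CPM, with at least 2 UMIs of Krt8 or Isl1 and less than 100 CPM of Otof. CPM is the UMI count of a gene scaled to 1e6 UMIs of the cell, or of the cells summed. The rule kept 1567 of 15416 cells that had at least 1000 detected genes and at most 15% mitochondrial UMIs. Of these cells 462 of 3496 were at day 16, 887 of 4553 at day 20, and at day 21 70 of 3544 in the library labelled GFP high and 148 of 3823 in that labelled GFP low. The rule used Ccer2, Krt8, Isl1 and Otof, so the levels of those 4 genes are given as a description.

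The libraries came from mouse inner ear organoids, embryonic stem cell aggregates guided towards inner ear tissue and kept for 16, 20 or 21 days in culture. All 4 came from 1 stem cell line, Atoh1-nGFP, which carries a nuclear GFP reporter of Atoh1, and per the labels the dissociated organoids were sorted on GFP before 10x Genomics library preparation. The labels call all samples otic lineage, give a gate only for day 21, whose samples were split into GFP high and GFP low, and speak of nuclei in 1 field and of cells in another. Each group was 1 library without a replicate, and the labels name no drug or other genotype and do not say whether both day 21 libraries came from the same organoids.

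Merkel cells are touch-sensitive epithelial cells at the base of the epidermis that contact sensory nerve endings. They arise from epidermal progenitors under the transcription factor Atoh1, which also starts hair cell formation in the inner ear. They are known for the simple keratins Krt8, Krt18 and Krt20, the transcription factors Isl1 and Sox2, the stretch-activated channel Piezo2 and dense-core vesicles filled with secretory proteins and peptides.

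Ccer2 encodes a coiled-coil glutamate-rich protein and lies at chr7:28756174-28758968 (GRCm38, GENCODE M21, plus strand, protein-coding). The 250 bases before the RefSeq start (GRCm38.p6) are printed for Ccer2, the transcript that defines the cells, and for Chga and Th, genes of secretory vesicles and of dopamine synthesis that were high in them. Capitals mark matches, on either strand, to CAGCTG, an E-box bound by helix-loop-helix factors of the Atoh1 kind, to TGACGTCA, the cyclic AMP response element, and to its variant TGACGTAA. The windows are chr7:28755924-28756173 (plus strand), chr12:102554691-102554940 (plus strand) and chr7:142899996-142900245 (minus strand).
Ccer2: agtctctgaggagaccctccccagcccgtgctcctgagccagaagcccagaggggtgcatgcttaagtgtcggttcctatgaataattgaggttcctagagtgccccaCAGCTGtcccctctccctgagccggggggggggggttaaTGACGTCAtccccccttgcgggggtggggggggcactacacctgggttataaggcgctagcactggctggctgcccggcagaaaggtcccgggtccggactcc
Chga: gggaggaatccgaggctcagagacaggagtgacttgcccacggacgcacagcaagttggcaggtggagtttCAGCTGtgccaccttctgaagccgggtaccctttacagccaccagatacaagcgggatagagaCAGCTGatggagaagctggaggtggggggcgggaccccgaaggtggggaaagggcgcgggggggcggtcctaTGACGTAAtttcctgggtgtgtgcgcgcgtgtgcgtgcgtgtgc
Th: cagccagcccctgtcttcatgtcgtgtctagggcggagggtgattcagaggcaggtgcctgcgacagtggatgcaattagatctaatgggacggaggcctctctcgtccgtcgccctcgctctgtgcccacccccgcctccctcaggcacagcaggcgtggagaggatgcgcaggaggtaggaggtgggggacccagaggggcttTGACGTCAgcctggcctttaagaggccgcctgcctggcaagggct
The full response element was in 508 of 32851 promoter windows of that length (1.55%), its variant in 147 (0.447%) and CAGCTG in 4271 (13.0%). Of 19 genes searched, namely the Merkel markers, the 10 genes furthest above hair cells and Chga, 15 had a promoter in the table. CAGCTG was in 7 of the 15, TGACGTCA in 2 (Ccer2 and Th) and TGACGTAA in 1 (Chga). The motifs were chosen after the sequences had been read, and a match describes letters only.

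The cells made up a much larger share of the earlier libraries. They were 13.2% of filtered cells at day 16 (exact 95% Clopper-Pearson interval 12.1 to 14.4%) and 19.5% at day 20 (18.3 to 20.7%). In GFP high they were 1.98% (1.54 to 2.49%) and in GFP low 3.87% (3.28 to 4.53%). Hair cells, taken as cells with at least 100 CPM and 2 UMIs of Otof, 2 UMIs of Myo7a and less Ccer2 than the rule asks, were most numerous at day 21. They numbered 138, 59, 2080 and 587 in the same order of libraries. Since the sort set what entered each library, the share of these cells in an organoid and the gate cannot be told apart. All intervals here cover counting error only.

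In the order day 16, day 20, GFP high and GFP low, Ccer2 took 6.53%, 8.67%, 6.71% and 6.29% of all UMIs of these cells. The median cell held 6.59%, 9.05%, 7.29% and 6.21%, and the highest cell 26.1%, 28.8%, 16.6% and 16.7%. Hair cells held 0.367%, 0.245%, 0.261% and 0.0638% of their UMIs as Ccer2. Epidermis-like cells, taken as cells with at least 2 UMIs each of Krt5 and Krt14 and with Ccer2 and Otof under the limits of the rule, numbered 185, 115, 49 and 78, and had 446, 134, 17.1 and 8.02 CPM of Ccer2. All 4 libraries of the chosen cells lay above all other classes, which is what the rule selects. At day 20 the valley between low and high cells lay near the threshold, with 15 chosen cells at 10000 to 15000 CPM and 5 cells at 5000 to 10000 CPM that met the rest of the rule. At day 16 these numbers were 31 and 44, in GFP high 2 and 8, and in GFP low 4 and 6.

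**Figure D1:**
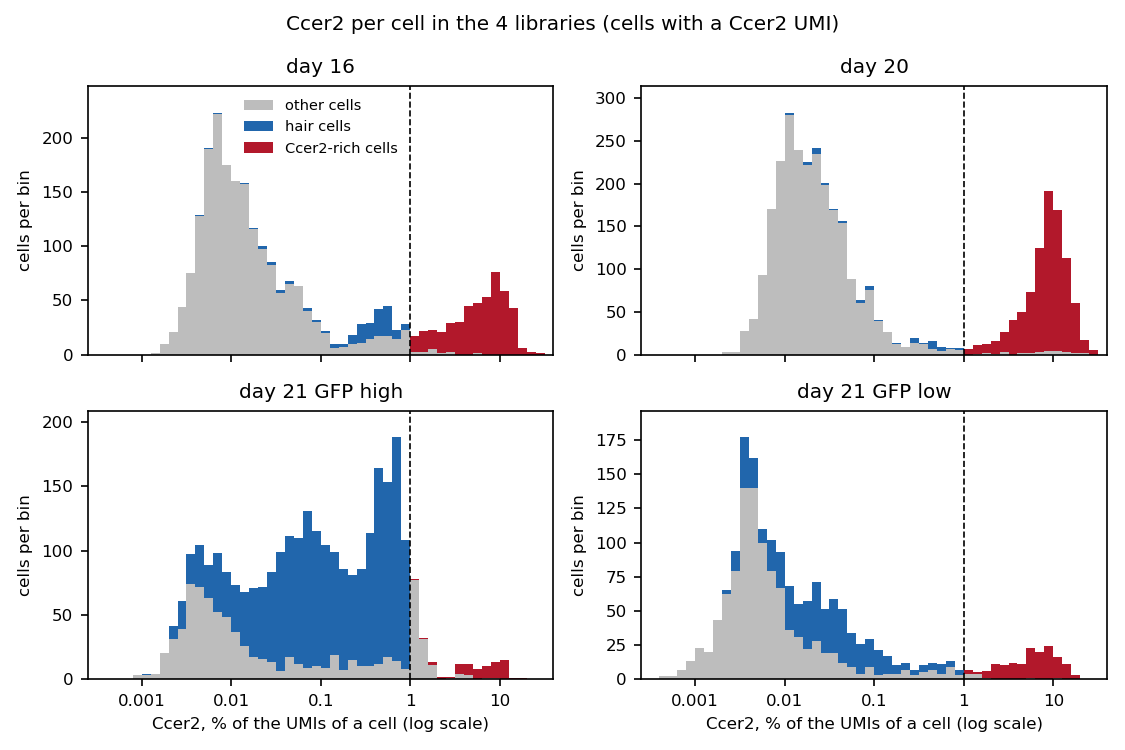
Histograms of the share of Ccer2 in the UMIs of a cell (log axis, cells with at least 1 Ccer2 UMI) for each library, stacked by class, with the 1% threshold dashed. At days 16 and 20 a separate hump lies around 10%, while in GFP high most cells just above 1% are grey because their Otof keeps them out of the rule.

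The GFP high library stood apart at the threshold. Of its 199 cells with at least 10000 CPM of Ccer2, 126 failed the Otof limit, and 116 of those held at least 2 UMIs of Myo7a. In the other libraries the limit removed 7 of 475 (day 16), 9 of 916 (day 20) and 11 of 159 (GFP low). The cells that failed it in GFP high had a median of 1.20% Ccer2, just above the threshold, and a median of 32584 UMIs, against 18821.5 in the cells kept there. Both Krt8 and Isl1 reached 2 UMIs in 444, 793, 64 and 141 of the kept cells. The libraries shared 1 to 8 barcodes per pair.

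The remaining Merkel markers were present in all 4 libraries. Krt18, the keratin that pairs with Krt8, was at 866, 786, 444 and 729 CPM in that same order of libraries, against 53.0, 25.9, 81.9 and 156 in hair cells. Krt20, a keratin of Merkel cells and gut epithelium, was at 107, 184, 95 and 168 CPM, against 0.388, 0, 1.47 and 5.10 in hair cells and at most 0.195 in epidermis-like cells. Piezo2, the channel of touch, was at 219, 140, 139 and 198 CPM, against 76.4, 15.3, 7.03 and 4.67 in hair cells. In each of these 3 genes every library of the chosen cells lay above every library of hair cells. How many of all genes do so was not counted.

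In tests of counts summed per library and class, with the library as a block (edgeR quasi-likelihood, 4 libraries, Benjamini-Hochberg adjusted over 13371 genes), a gene was called at an adjusted p under 0.05 and at least 2-fold. The p-values measure the spread among these 4 libraries only. Against hair cells 13.8% of genes were called higher and 15.5% lower in the Ccer2-rich cells. Of the Merkel markers that the rule did not use 4 of 5 were called higher and none lower, with a median of 3.43 on the log2 scale against 0.03 for all genes. The list was chosen with earlier results of these data known, and Krt18 pairs with Krt8, a gene of the rule. The count of markers is therefore a description. Krt20 was higher by 5.97 ± 1.21 (mean log2 ratio of CPM + 1 ± SD, n = 4 libraries, edgeR adjusted p = 0.000113), Piezo2 by 3.47 ± 1.55 (adjusted p = 0.00251), Krt18 by 3.38 ± 1.28 (adjusted p = 0.00182) and Atoh1 by 2.63 ± 1.40 (adjusted p = 0.00400). Sox2 did not reach the 2-fold limit, at 515, 396, 486 and 603 CPM against 265, 294, 414 and 330 in hair cells. Krt7, another simple keratin, was higher by 1.72 ± 1.11 (adjusted p = 0.00703), while Krt19 was at 0.341, 15.3, 0 and 1.81 CPM and was not called.

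**Figure D2:**
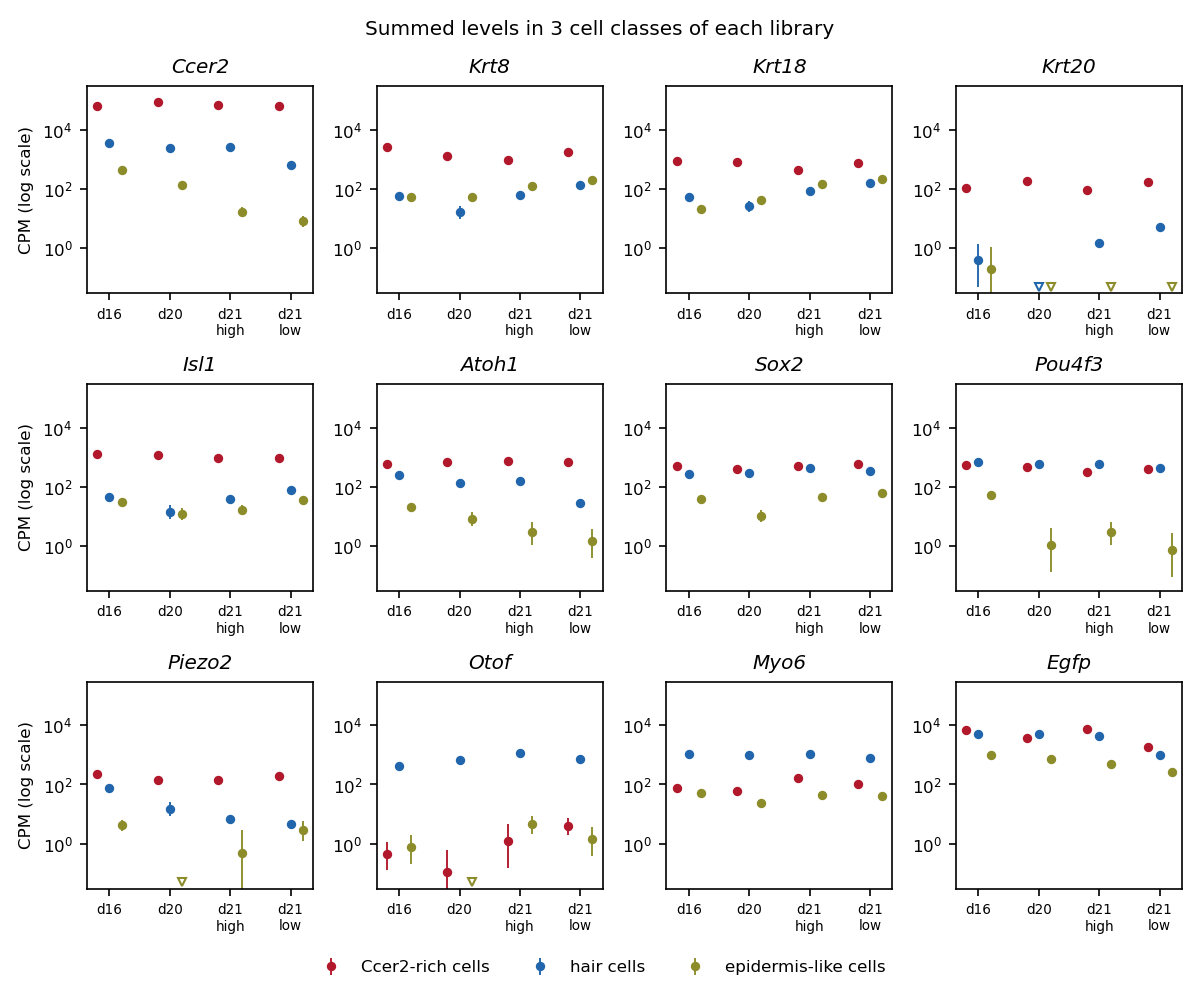
CPM (log axis) of 12 genes in cells summed by class, for the 4 libraries, with 95% Poisson intervals that are often smaller than the points; open triangles mark classes with 0 UMIs. Krt18, Krt20, Isl1 and Piezo2 are above hair cells in all 4 libraries, Pou4f3 lies close to hair cells, and Egfp falls from 7747 CPM in GFP high to 1850 in GFP low.

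Measured at an equal depth of 3000 UMIs per cell, Krt20 was found in 22.7%, 35.3%, 30% and 36.3% of the chosen cells, and in 0.725%, 0, 0.673% and 0.681% of hair cells. The thinning left out 9, 43, 0 and 2 of the chosen cells, while the unthinned median depths were 16870, 8969, 18821.5 and 15874.5 UMIs against 34914, 17285, 31230.5 and 26265 in hair cells. Hepacam2, which encodes an adhesion protein of the immunoglobulin family, was found in 57.8%, 64.6%, 65.7% and 68.5% of the chosen cells and in 0, 0, 0.144% and 0% of hair cells. At the limit of 3 counts that a count of 0 allows, the shares at 0 in hair cells could be up to 2.17% at day 16, 5.08% at day 20 and 0.511% in GFP low.

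Transcription factors were called in both directions. Pou4f3, needed for hair cell survival, was at 549, 470, 309 and 387 CPM, against 674, 589, 562 and 434 in hair cells, and its difference missed the call (-0.41 ± 0.31, edgeR adjusted p = 0.225). Lhx3, a LIM homeobox factor of hair cells and motor neurons, was at 326, 377, 281 and 334 CPM against 215, 280, 207 and 122, short of 2-fold but past it without the GFP high library (fitted log2 change 1.01) or without 2 clusters of the chosen cells that carried RNA of other lineages, called mixed clusters from here (1.15). Gfi1, a hair cell repressor, was lower by 2.39 ± 0.85 on the log2 scale (88.7, 45.9, 113 and 105 CPM against 303, 583, 437 and 491, adjusted p = 0.000944). Insm1, a zinc finger factor of neuroendocrine cells, was higher by 3.90 ± 0.99 (409, 275, 267 and 334 CPM against 66.0, 15.3, 16.8 and 9.40, adjusted p = 0.000236). Prox1, a homeobox factor, was higher by 3.85 ± 1.22 (130, 99.2, 106 and 104 CPM against 14.2, 0.958, 9.48 and 10.0, adjusted p = 0.000187). Rest, the repressor of neuronal genes outside neurons, was at 7.85, 4.79, 10.1 and 6.52 CPM and fell by 2.69 ± 0.43 (mean log2 ratio -2.69, adjusted p = 0.000150). Of 21 tested factors in the list 11 were called higher and 4 lower, or 10 and 5 of 20 without the mixed clusters, with a median fitted log2 change of 1.52 against 0.03 for all genes. Over all genes, 1717 of 12822 were called higher and 2212 lower than in hair cells without the mixed clusters.

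Among the 10 called genes furthest above hair cells, Tac2, which encodes neurokinin B, was at 159, 344, 953 and 238 CPM, and at 0, 0, 0.461 and 0.425 in hair cells (8.12 ± 0.96 on the log2 scale, edgeR adjusted p = 1.99e-05). Penk, which encodes proenkephalin, was at 256, 274, 127 and 199 CPM against 0.776, 0, 1.08 and 0.849 (7.0 ± 0.90, adjusted p = 2.62e-05). The order of these peptide genes across the 4 libraries was not the same. Hepacam2 stood at 280, 339, 319 and 422 CPM against 0.970, 0.958, 0.587 and 1.64, the steadiest of these differences (7.39 ± 0.21, adjusted p = 1.57e-05). Th, tyrosine hydroxylase, the enzyme that starts dopamine synthesis, was at 40.8, 91.2, 123 and 132 CPM against at most 0.364 (6.34 ± 0.65, adjusted p = 2.51e-05).

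The others among the 10 were Bfsp1, a beaded filament protein known from the lens, at 118 to 385 CPM, Scgn, the calcium binding protein secretagogin, at 26.7 to 95 CPM, the channel subunit Kcnv1 at 45.0 to 119 CPM, the G protein subunit Gng4 at 39.5 to 78.3 CPM and Aspa, aspartoacylase, at 25.1 to 136 CPM. Their means in hair cells stayed under 2 CPM in every library. Defa24, an alpha-defensin, was at 49.5, 188, 614 and 268 CPM and at most 0.667 in hair cells, but 10 cells held 88.2% of its UMIs in GFP high. The alpha-defensins are near-identical copies, so the assignment of reads to Defa24 is uncertain. Ddc, the enzyme that follows Th, was at 0.114, 0.111, 2.53 and 0.362 CPM in the same cells.

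**Figure D3:**
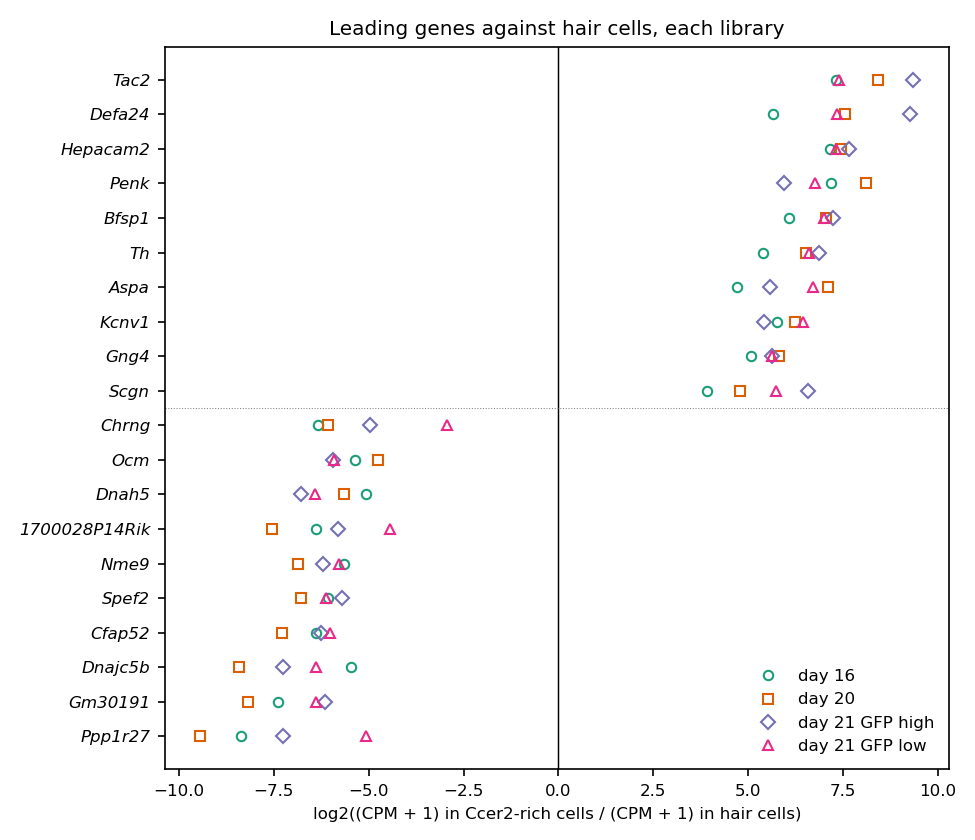
Log2 ratio of CPM + 1 in Ccer2-rich cells over hair cells for the 10 called genes furthest up and the 10 furthest down, with 1 symbol per library. All 4 libraries lie on the same side of 0 for each gene, as the rule for naming them required, and the 4 values of Hepacam2 nearly coincide.

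More genes of secretory granules and vesicles were called higher than lower. Of 18 tested genes of secretory granules 10 were called higher and 1 lower against hair cells (9 and 2 without the mixed clusters), with a median of 2.33 on the log2 scale against 0.03 for all genes. Chga, chromogranin A, a core protein of dense-core vesicles, was at 533, 901, 1771 and 1056 CPM against 63.4, 50.8, 39.5 and 43.1 (4.30 ± 1.0, edgeR adjusted p = 0.000141). Chgb, its relative chromogranin B, was at 185, 205, 748 and 403 CPM against 69.8, 47.0, 44.3 and 50.8 (2.63 ± 1.15, adjusted p = 0.00135). Scg5 and Cpe, which encode other granule proteins, were not called, with Cpe at 360, 411, 662 and 537 CPM against 408, 758, 828 and 817.

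Of 28 tested genes of vesicle release 15 were called higher and 1 lower (15 and 2 of 26 without the mixed clusters). Rab3c, a GTPase of secretory vesicles, was at 205, 215, 182 and 339 CPM against 16.5, 13.4, 7.01 and 15.7 (4.08 ± 0.43, edgeR adjusted p = 2.51e-05). The fusion proteins Snap25 and Vamp2 were higher by 1.68 ± 0.59 and 1.55 ± 0.35. The gene called lower was Ctbp2, at 20.7, 9.13, 32.9 and 19.6 CPM against 59.7, 47.0, 88.8 and 81.3. Its products include the ribbon protein RIBEYE of hair cell synapses, and counts per gene do not separate its transcripts. The glutamate transporter of hair cells, Slc17a8, was also lower (25.9, 25.6, 46.9 and 26.1 CPM against 74.1, 177, 191 and 168, adjusted p = 0.000521). Slc17a6 and Slc17a7, the other vesicular glutamate transporters, were at 5.46 to 73.4 and 0 to 2.96 CPM. Vip, a peptide described in Merkel cells of several mammals, had 0 UMIs in all 4 libraries of the chosen cells, which at the same limit of 3 counts allows up to 0.649%, 0.338%, 4.29% and 2.03% of cells with a UMI. Of 11 tested neuropeptide genes 7 were called higher and 1 lower (5 and 1 of 9 without the mixed clusters), and of 8 transmitter genes 3 and 2 (2 and 4 of 7).

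Channel genes were called in both directions. Of 27 tested voltage-gated channel genes 12 were called higher and 6 lower (8 and 6 of 23 without the mixed clusters). Cacna1a, the P/Q-type calcium channel, was at 31.7, 19.9, 25.3 and 39.1 CPM against 6.21, 1.92, 3.30 and 4.73 (2.61 ± 0.30, edgeR adjusted p = 7.80e-05). Cacna1d, the L-type channel that drives release in hair cells, was at 2.96, 2.90, 5.07 and 7.61 CPM against 60.9, 50.8, 104 and 109 (-3.87 ± 0.20, adjusted p = 2.48e-05). Kcna10, a potassium channel of hair cells, was lower by 6.82 ± 1.15 on the log2 scale (mean -6.82). Ntf3, the nerve growth factor neurotrophin 3, was at 184, 246, 147 and 244 CPM against 3.69, 3.83, 2.43 and 2.24 in hair cells and 27.7, 31.5, 19.1 and 28.1 in epidermis-like cells. Of 8 tested genes of neurotrophins, GDNF family factors and their receptors 2 were called higher (Ntf3 and Ntf5) and 3 lower (Bdnf, Ntrk2 and Ntrk3) than in hair cells (2 and 4 of 8 without the mixed clusters), and 1 higher and 3 lower of 8 against epidermis-like cells (1 and 3 of 7).

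Among epithelial adhesion genes 12 of 25 were called higher and none lower against hair cells (13 of 24 without the mixed clusters). Epcam was at 674, 741, 768 and 639 CPM against 434, 266, 305 and 237, Cdh1, which encodes E-cadherin, at 72.2, 45.8, 75.3 and 71.4 against 14.7, 7.67, 13.8 and 8.98, and the desmosome gene Dsp at 105, 85.9, 116 and 115 against 10.5, 0, 5.84 and 5.76. Of 19 tested Notch pathway genes 3 were higher and 7 lower (3 and 9 without the mixed clusters), beside 13.8% and 15.5% of all genes. Dll3, an inhibitory ligand, was at 490, 348, 208 and 292 CPM against 98.9, 48.9, 45.4 and 11. Dll1 and Jag2, activating ligands of hair cells, were at 1.27 to 9.47 and 30.3 to 59.5 CPM against 53.0 to 57.7 and 69.4 to 206.

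Hair cell genes were low, and since Otof and Myo7a separate the classes these values are given as a description. Of 34 tested hair cell genes 30 were lower and none higher (29 lower and 1 higher without the mixed clusters). Myo6, a motor protein of the hair bundle base, was at 73.6, 62.5, 161 and 101 CPM against 1038, 971, 1078 and 811. Tmc1, the transduction channel, was at 0.227, 0.223, 2.53 and 2.17 CPM against 15.5, 46.0, 104 and 164. Genes of cilia with a motile axoneme were among the 10 furthest down, with Cfap52 at 0.227, 0, 1.27 and 1.45 CPM against 102, 155, 172 and 157, and Dnah5 at 0 to 0.362 CPM against 32.4 to 115.

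Against epidermis-like cells 11.9% of 11482 genes were called higher and 13.4% lower. Without the mixed clusters 1427 of 11021 were higher and 1662 lower. All 5 tested Merkel markers were higher: Krt20 by 7.0 ± 0.54 (mean log2 ratio ± SD, n = 4 libraries, edgeR adjusted p = 0.000141), Atoh1 by 6.65 ± 1.5 (adjusted p = 0.000932), Piezo2 by 6.18 ± 0.81 (adjusted p = 0.000448), Sox2 by 3.87 ± 0.85 (adjusted p = 0.000951) and Krt18 by 3.20 ± 1.84 (adjusted p = 0.0272). The call of Krt18 was lost without the day 20 library (fitted log2 change 2.51). The limits given for the Merkel marker list against hair cells hold here too. Of 25 genes of vesicle release 19 were higher and none lower, and of 17 granule genes 11 and none. Hair cell genes were also more often higher here, 12 of 19 with none lower, Pou4f3 among them (6.31 ± 2.11, adjusted p = 0.00358) at 53.5, 1.10, 3.01 and 0.729 CPM in epidermis-like cells. Prrxl1, a homeobox factor of sensory neurons, and Sncg, gamma-synuclein, were among the 10 furthest up (7.31 ± 1.24 and 7.63 ± 1.30).

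Epidermal keratins and basement membrane genes were lower than in epidermis-like cells, a class set by Krt5 and Krt14, so that 13 of 16 tested epidermal genes below it is a description. Col17a1, a hemidesmosome collagen, was at 5.12, 5.57, 9.50 and 12.0 CPM against 114, 231, 277 and 410, and Trp63, the master factor of stratified epithelium, at 13.1, 4.90, 4.43 and 15.2 against 277, 130, 172 and 199. Adhesion genes did not share 1 direction, with 6 of 26 higher and 10 lower. Cdh1 stood at 81.4, 58.0, 103 and 76.5 CPM in epidermis-like cells, above the chosen cells by less than 2-fold (-0.26 ± 0.16).

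Genes of the cell cycle were low beside epidermis-like cells, where 18 of 20 tested were called lower and none higher. Against hair cells 1 of 19 tested was higher and 1 lower, with a median of 0.56 on the log2 scale against 0.03 for all genes. The summed level of the cell cycle list was 213, 130, 130 and 152 CPM in the chosen cells. It was 1217, 916, 903 and 480 in epidermis-like cells and 250, 183, 233 and 128 in hair cells. Cdk1, the kinase of mitosis, was at 16.0, 2.67, 1.27 and 7.25 CPM, and at day 16 10 cells held 93.6% of its UMIs. Without the mixed clusters the summed level was 102, 102, 112 and 113 CPM. Cdkn1b, the inhibitor p27, was at 103, 178, 131 and 142 CPM against 60.7, 70.9, 53.9 and 40.2 in hair cells (1.28 ± 0.42, edgeR adjusted p = 0.000556). Cdkn1c, the inhibitor p57, was at 70.6, 210, 32.3 and 87.7 CPM against 652, 590, 573 and 149 and was called lower (adjusted p = 0.0173), but not without the day 16 library (fitted log2 change -2.19 with it and -1.85 without it).

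Of 16 enteroendocrine markers only Chga reached 10 CPM in any library, and Neurog3, the factor that founds that lineage in the gut, had 0 UMIs in all 4, with the same limits as Vip. That count holds for the listed markers only, since the list leaves out Cck, Sst, Scgn and Insm1, whose levels are given in other paragraphs. Of 10 taste and tuft cell markers only Avil and Dclk1 reached 10 CPM in the chosen cells. Avil, which encodes advillin, was at 166, 189, 60.1 and 210 CPM against at most 1.21 in hair cells, while Trpm5, the tuft cell channel, was at 0.114, 0.334, 0 and 0.362. The 8 markers of lung neuroendocrine cells, a list that shares Chga with the enteroendocrine list, summed to 836, 1088, 2412 and 1490 CPM in the chosen cells, 701, 312, 286 and 192 in hair cells and 180, 15.5, 7.02 and 59.8 in epidermis-like cells. In the chosen cells 4 or 5 of the 8 reached 10 CPM in each library, while Nkx2-1, the factor of lung epithelium, had 0 UMIs in all 4. Of 7 tested markers of that list 3 were called higher and 1 lower than in hair cells (2 and 1 of 7 without the mixed clusters), and of 6 tested against epidermis-like cells 5 were higher and none lower (5 of 5 without them). The 7 immune markers summed to 0.668 to 3.80 CPM and the 8 pluripotency markers to 0.633 to 6.16 CPM.

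Sub-clusters of the chosen cells followed the libraries. Leiden clustering of the 1567 cells, without the genes of the rule and without integration, gave 8 clusters, and day 16 supplied 316 of 324 cells of cluster 1 and 53 of 58 of cluster 7. Day 20 supplied 426 of 435 cells of cluster 0, 180 of 202 of cluster 3 and 147 of 152 of cluster 4, and of the 208 cells of cluster 2 GFP high supplied 60 and GFP low 113. With 1 library per group, clusters mostly of 1 library may be that library, so they are described by leading genes and carry no names or tests.

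**Figure D4:**
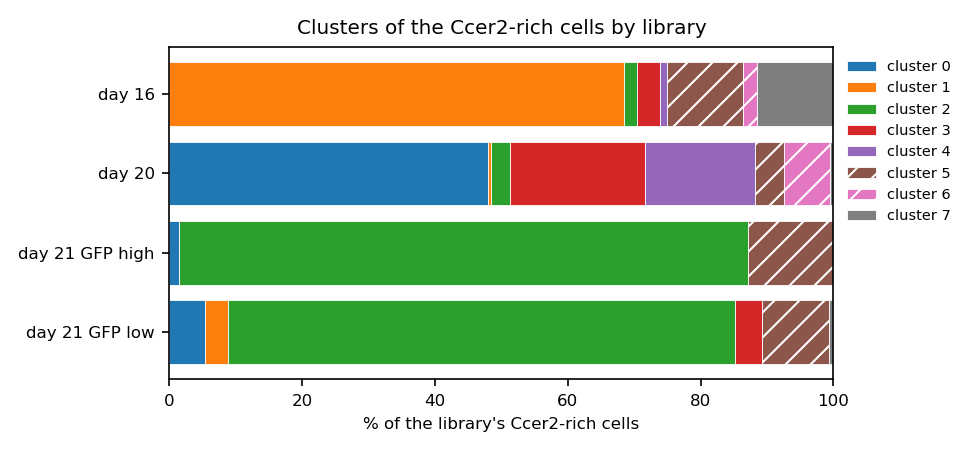
Share of each cluster among the Ccer2-rich cells of a library, in percent, with the mixed clusters 5 and 6 hatched. Cluster 1 makes up 68.4% of day 16, cluster 0 48.0% of day 20, and cluster 2 85.7% of GFP high and 76.4% of GFP low.

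Cluster 0 was led by Lhfpl5, Rab37, Bfsp1 and Aspa, cluster 1 by Tmem213, Chrna3 and Mslnl, and cluster 2 by Defa30, Mia, Defa21 and Npy. Cluster 3 was led by Adm, Ero1l and Ccdc7a, with Ero1l at 1323 against 347 CPM over UMIs other than Ccer2 in the remaining cells. Cluster 4 was led by Fgf21, Nupr1 and Ankrd37, with Ankrd37 at 693 against 235 in the remaining cells.

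Cluster 7, with a median Ccer2 share of 1.98%, is set here beside cluster 1 of the same day. In CPM over UMIs other than Ccer2 it held Krt8 at 3703 against 3371, Pou4f3 at 1013 against 682, Hes6 at 1114 against 887, Krt17 at 1052 against 98.4 and Krt79 at 122 against 1.37. Krt20 was at 8.7, Chga at 38.5, Chgb at 2.5 and Tac2 at 3.7 there, against 168, 720, 230 and 233 in cluster 1. Krt17 and Krt79 are keratins of hair follicle and gland epithelium, and Hes6 is a factor of early neurogenic cells. None of the 58 cells had a high doublet score, and their median depth was 14410 UMIs against 16890 in cluster 1.

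Clusters 5 and 6 carried RNA of other cell types. Cluster 6, with 72 cells of which 60 had high doublet scores, held the mesenchymal genes Col1a1 at 1964, Dcn at 1333 and Lum at 726 CPM over UMIs other than Ccer2, against 38, 25 and 14 in the rest. Cluster 5, with 116 cells, 38 high scores and a median of 30550 UMIs, was led by Sst, Krt5, Stmn4, Dcx and Krt15. The 2 clusters held 188 chosen cells, 63, 101, 9 and 15 by library. Without them the shares of the chosen cells were 11.4%, 17.3%, 1.72% and 3.48%.

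The other-lineage counts moved with those 2 clusters. The clusters were picked after their leading genes, which include mesenchymal, epidermal and neuronal markers, had been seen. A fall of such counts without them therefore follows in part from that choice and is a description. The 12 mesenchymal markers summed to 648, 1778, 272 and 69.9 CPM in all chosen cells and to 218, 222, 32.4 and 50.9 CPM without the clusters, against 473, 331, 99.4 and 100 in hair cells. Against hair cells 2 of 11 were called higher, and without the clusters none of 10 higher and 3 lower. That alternative removed chosen cells only, and the hair cell sums stayed as they were. High doublet scores fell on 10 of 138, 3 of 59, 90 of 2080 and 43 of 587 hair cells. The 20 epidermal markers summed to 1158, 1167, 1397 and 1133 CPM, and to 1119, 786, 748 and 870 without the clusters, against 281, 152, 122 and 202 in hair cells. Of 17 tested 14 were higher than in hair cells, and 6 of 14 without the clusters. Krt5 went from a called rise (3.51 ± 2.71, edgeR adjusted p = 0.0267) to a fitted log2 change of -0.73 that was not called, and its call was also lost without the day 20 library (2.58) or the GFP high library (2.13), whereas Krt17 kept its call (3.14 ± 1.15, adjusted p = 0.000636). At day 20 10 cells held 81.2% of the Krt5 UMIs of the chosen cells.

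Of 17 tested neuronal markers 11 were higher and 2 lower than in hair cells, and 7 and 2 of 15 without the clusters. The 19 neuronal markers summed to 2403, 1723, 4989 and 2815 CPM, against 2870, 2060, 1302 and 1729 in hair cells. The sum was thus below hair cells at days 16 and 20 and above them in both day 21 libraries. Without the clusters the chosen cells summed to 1783, 1515, 5102 and 2027 CPM. Gap43, a growth cone protein, was at 411, 393, 1326 and 735 CPM against 86.9, 2.88, 6.71 and 24.1, and was found in 53.2%, 61.4%, 91.4% and 77.4% of cells at 3000 UMIs. Stmn2, a microtubule regulator, was at 381, 365, 876 and 389 CPM against 178, 13.4, 12.5 and 39.5. Dcx, a marker of young neurons, had its direction turned without the clusters, to a fitted log2 change of -1.15. The part of other cells' RNA in the remaining counts was not tested.

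Within the chosen cells the levels of a few picked genes are given by Ccer2, a gene of the rule. How many of all genes varied with it was not counted. Cells were split at 2% and 5% Ccer2, and levels were taken as CPM over UMIs other than Ccer2, so that Ccer2 does not crowd them out. At day 16 Krt20 was at 12, 43 and 181 in the 3 bands from low to high (53, 122 and 287 cells), and at day 20 at 25, 85 and 248 (27, 125 and 735 cells). Chga was at 182, 373 and 783 at day 16 and at 280, 553 and 1160 at day 20. Tac2 rose from 4 to 275 and from 74 to 456, Sncg from 64 to 516 and from 172 to 614, and Hepacam2 from 151 to 382 and from 165 to 436. Krt17 went down, from 692 to 87 and from 818 to 65.

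The same order held without the mixed clusters for those genes, although at day 20 the lowest band then held 16 cells and Krt17 started from 185. Krt8 did not follow, at 2859, 3805 and 3221 at day 16 and 1382, 1851 and 1686 at day 20 without the clusters. Median depth was 15870, 16670 and 16900 UMIs in the 3 bands at day 16 and 12520, 10250 and 8807 at day 20. At day 21 the lowest band held only 4 and 9 cells. High doublet scores fell on 10, 14 and 6 cells of the 3 bands at day 16 and on 8, 30 and 28 at day 20. These are values of cells within 1 library each, the lowest band at day 16 held much of cluster 7, and no test was made.

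**Figure D5:**
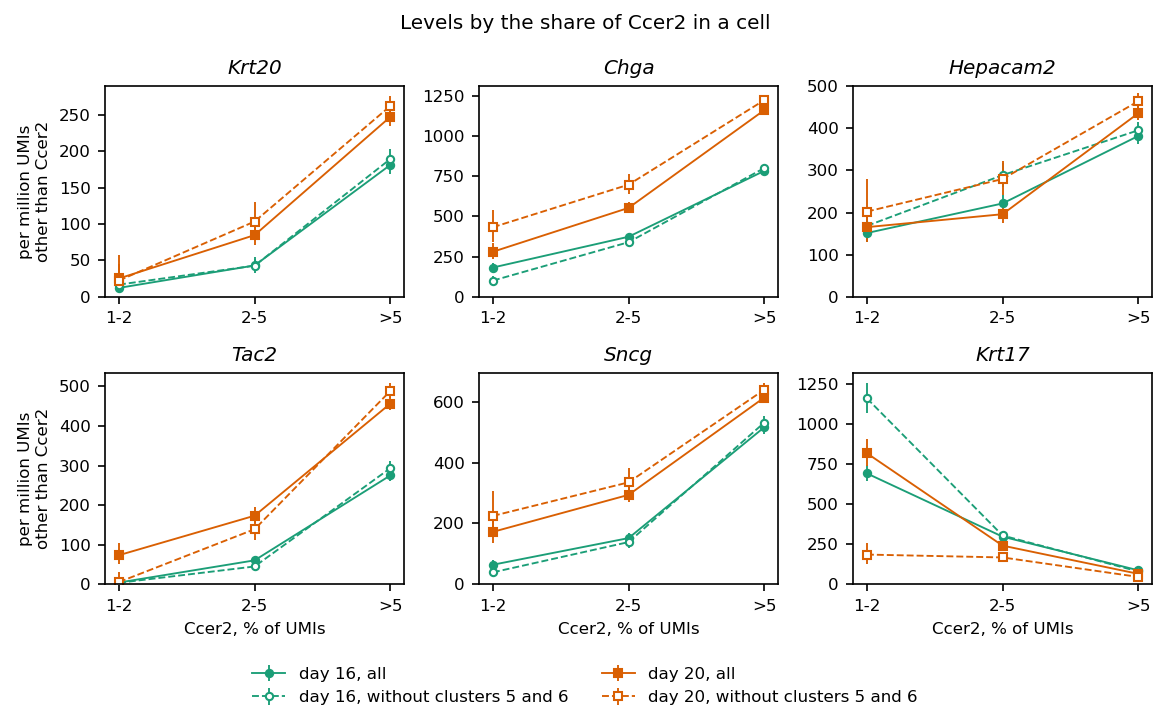
CPM over UMIs other than Ccer2 (95% Poisson intervals) of 6 genes in Ccer2-rich cells split by their share of Ccer2, for day 16 and day 20, with all cells (filled, solid) and without clusters 5 and 6 (open, dashed). Krt20, Chga, Hepacam2, Tac2 and Sncg are highest in the band above 5%, and Krt17 is lowest there.

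Day 21 GFP high and GFP low were compared within the chosen cells by a rule of size, since each gate was 1 library. A gene was called at a CPM ratio of 2 or more either way whose exact 95% counting interval excludes 1, among the 7072 genes that reached 20 CPM in at least 1 of the libraries. Of these 167 (2.36%) were higher and 142 (2.01%) lower in GFP high, and 242 and 122 without cells of high doublet score, which moves the share of higher calls from 54.0% to 66.5%. The reporter transcript Egfp was at 7747 CPM in GFP high and 1850 in GFP low, a ratio of 4.19 (95% interval 4.05 to 4.33), as the sort on GFP selects. Atoh1, whose activity the reporter marks, was at 743 and 666 CPM, a ratio of 1.11 (1.03 to 1.20). In hair cells of the same 2 libraries Egfp was at 4409 and 1016 CPM and Atoh1 at 150 and 27.2, and whether the 2 cell classes differ in this was not tested.

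None of the 5 Merkel markers was called between the gates, with ratios of 0.609 for Krt18, 0.565 for Krt20, 0.703 for Piezo2, 1.11 for Atoh1 and 0.806 for Sox2. Barhl1, a homeobox factor of hair cells, was 3.30 times higher in GFP high (2.72 to 4.0), at 199 against 60.5 CPM. Stmn2 was 2.25 times higher (2.08 to 2.44), and of 14 tested neuronal markers 2 were called higher, or 9 of 13 without the mixed clusters. Over all genes, 236 of 6962 were higher and 196 lower without those clusters. Markers of other cell types moved too: 3 of 4 tested glial and progenitor markers were higher in GFP high (1 of 2 without the mixed clusters), 3 of 3 mesenchymal markers were higher (without them 1 was tested and was lower), and 3 of 4 supporting cell markers were lower (3 of 4 without them). The glial and progenitor list summed to 230 CPM in GFP high and 67.8 in GFP low, or 69.0 and 54.6 without the mixed clusters, and the part of such cells in the other differences was not tested. Avil was lower, at 60.1 against 210 CPM (ratio 0.287, 0.228 to 0.357). Of 11 immediate-early genes, which respond quickly to stimulation and to dissociation, 2 were lower, or 8 of 13 without the mixed clusters, and Fos was then at a log2 ratio of -1.30.

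Several leading genes of that comparison rested on few cells. Defa30 was at 1174 CPM in GFP high and 1.45 in GFP low, yet it was found in 2.86% of cells at 3000 UMIs, and 10 cells held all of its UMIs. Sst, the peptide somatostatin, was at 875 against 14.5 CPM, and Npy, neuropeptide Y, at 719 against 60.5, with 100% and 99.1% of the GFP high UMIs in 10 cells. Cck, cholecystokinin, was at 266 against 23.6 CPM (ratio 11.3, 8.70 to 14.9) and was more widespread, in 40.0% of GFP high cells and 4.79% of GFP low cells at 3000 UMIs. The GFP high library held 70 chosen cells and the GFP low library 148.

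Day 20 was compared with day 16 by the same rule over 6347 genes, of which 194 (3.06%) were higher and 364 (5.73%) lower at day 20. Without the mixed clusters 158 of 6132 genes were higher and 312 lower. With TMM scaling, which moved the median of all tested genes from -0.11 to 0.05 on the log2 scale, 307 were higher and 247 lower, so the share of higher calls went from 34.8% to 55.4%. No Merkel marker was called, with Krt20 at 1.72 times (1.59 to 1.87), Atoh1 at 1.25 times and Piezo2 at 0.639 times its day 16 level. Lhfpl5, which encodes a protein of the hair cell transduction complex, was 7.69 times higher (6.45 to 9.23), at 16.0 CPM at day 16 and 123 at day 20, and was found in 4.86% and 27.0% of cells at 3000 UMIs. Th was 2.23 times higher (1.97 to 2.54), from 40.8 to 91.2 CPM, though 0.94 on the log2 scale and so short of the call as a mean over single cells.

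Of 13 tested neuronal markers 5 were lower and none higher at day 20 (4 of 12 lower without the mixed clusters). Sox11, a factor of young neurons and other immature cells, fell from 309 to 47.5 CPM (ratio 0.153, 95% interval 0.138 to 0.170). Tubb3, neuronal tubulin, fell from 507 to 142 CPM (0.280, 0.263 to 0.298), and Chrna3, a nicotinic receptor subunit, from 63.7 to 9.91. Sox11 also fell in hair cells, from 224 to 25.9 CPM, and in epidermis-like cells, from 455 to 33.1, and the nuclear RNA Kcnq1ot1 went from 287 to 40.6 CPM in the chosen cells, from 393 to 93.9 in hair cells and from 282 to 68.5 in epidermis-like cells. These 2 genes thus moved alike in all 3 classes of the libraries, and whether the chosen cells differ from the others in this was not tested.

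The mesenchymal and epidermal genes that were higher at day 20 went with the mixed clusters, which were picked with such genes seen. Of 8 tested mesenchymal markers 7 were called higher, and none of 4 without clusters 5 and 6. Of 11 epidermal markers 5 were higher and 1 lower, and without the clusters none of 8 higher and 3 lower. Car3, Cxcl12 and Mgp, stromal and muscle genes among the 10 furthest up, lost the call without the clusters, Mgp at a log2 ratio of 0.30 in place of 146 against 17.4 CPM. Krt17 was at 222 CPM at day 16 and 130 at day 20, and at a log2 ratio of -1.87 without the clusters. Of 11 immediate-early genes 5 were higher and none lower at day 20, Junb at 423 against 106 CPM and Fos at 443 against 156, and 2 higher and 1 lower without the clusters.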

How the data were processed

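The authors deposited whole-number UMI counts, 1 for each gene in each barcode, with no normalisation. Cell Ranger 6.1.2 made them per the file headers. Per the submitters' processing notes the tools were Cell Ranger 6.1.0 and Seurat 4.0.6, with build mm10. The annotation used is not given in the sources used here. Gene symbols and barcodes came from the deposited lists of 32289 genes and 18207 barcodes. Positions came from GENCODE M21 (484 of 485 named or listed identifiers matched).

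Library totals over filtered cells ranged from 45954382 to 113244855 UMIs. Doublets were scored with Scrublet (Scanpy 1.11.5) and kept, since their removal was an alternative. The highest scores, at a rate of 0.8% per 1000 barcodes, are called high. Counts were summed per library and class. Classes were compared with edgeR 4.0.16 in R 4.3.3 (TMM, low-count filter, library block). Libraries were compared by CPM ratios with exact conditional binomial intervals. Ratios of means use CPM + 1. Scripts were tested on simulated data. DESeq2 1.42.0, other filters, thresholds and scalings, and leaving out each library were alternatives. Named genes were the Merkel markers, in each other list up to 8 genes at 20 CPM or more with the largest change and those at 0, the 10 called genes furthest up and down per comparison at 50 CPM or more that moved the same way in every library, and Egfp. Leading genes of clusters and some other named genes were chosen after their values were seen. The cells and gene lists were chosen with earlier results of these data known. A few genes are not reported here, though counts over lists and over all genes include them.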

Additional observations from a re-analysis of the deposited data

Results flagged for a closer look

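Between libraries, 5 listed genes lay on opposite sides of hair cells, by at least 2-fold with a counting interval that excludes 1 and at 50 CPM or more in either class. Values are log2 ratios of CPM in Ccer2-rich cells over hair cells, with 1 library per group, and the differences between libraries were not tested. Barhl1 was at 1.45 in GFP high and 1.71 in GFP low, but at -2.29 at day 16. Gng8, a G protein subunit of hair cells, was at -1.39 at day 16, -2.70 at day 20 and 1.45 in GFP low. Of 13 listed immediate-early genes only Egr1, Fos and Junb met this rule. Egr1 was at 2.14 at day 20 and -1.32 in GFP high, Fos at 1.56 and -1.09, and Junb at 1.64 and -1.0.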

How the results depend on the processing

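Each group is 1 library, so the comparisons between libraries had no pairs. The class comparisons paired the classes within each library through the library block. Class counts stayed within 1.5 times under all alternatives: leaving out 1 library gave 1595 to 1853 genes higher and 1952 to 2091 lower against hair cells, and 988 to 1716 and 1246 to 1723 against epidermis-like cells. The share of Ccer2-rich cells at day 16 was 14.5% at a Ccer2 threshold of 5000 CPM, 11.7% at 20000 CPM, 15.2% with at least 2000 detected genes and 11.4% without clusters 5 and 6. At day 20 it was 22.9% with 2000 genes, 17.4% with both Krt8 and Isl1 at 2 UMIs and 17.3% without the clusters. Without a CPM minimum 292 genes were higher and 286 lower in GFP high, and 600 and 1234 at day 20. TMM scaling gave 307 higher at day 20.

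Leaving out clusters 5 and 6, an alternative chosen after seeing the data, turned the direction of these log2 values against hair cells: Ebf3 -0.66, Dcn -1.04, Rrm2 -2.04, Hbegf -8.00, Vim -1.54, Gad2 -3.01, Postn -0.82, Dcx -1.15, Twist1 -0.87, Nhlh2 -1.50, Scg2 -2.46, Krt15 -0.046 and Krt5 -0.73. In GFP high over GFP low it did so for Cartpt 3.13, Vim -1.07, Krt14 -1.09, Sfn -1.17, Krt5 -1.79, Lgals1 -0.94 and Ccnd1 -3.95. For day 20 over day 16 it did so for Dcn -0.15, Col1a2 -0.41, Dlk1 -1.18, Krt14 -1.92, Krt15 -1.90, Krt5 -1.67, Cstdc5 -0.19 and Krtdap -2.33. In GFP high over GFP low the 20000 CPM threshold turned Calb2 to 0.98, Smpx to 0.95 and Hspa1a to -1.07, removal of high doublet scores turned Cartpt and Cnmd to 1.10 each, and the mean of single cells turned Cnmd to 0.49. The cause was not tested, and the alternative without clusters 5 and 6 left the hair cell sums as they were. Among the genes reported here no other that was called, with or without a change of setting, turned its direction under the alternatives run. The comparison at day 21 rests on 70 and 148 cells, with 1 library per gate.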

Other observations

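TdTomato, listed as a gene in the deposited tables, had 0 UMIs in the filtered cells of all 4 libraries.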
